A study of Caenorhabditis elegans with 2 samples.

Results

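The genes described here are the 78 that were at least 2-fold lower in heat-stressed *Caenorhabditis elegans* without the p38 kinase PMK-1 than in heat-stressed wild-type worms, outside the gene families and single genes listed below. They were chosen from 5198 genes with at least 50 uniquely mapped reads in either library, among 8733 genes with any read. The rule took genes with a ratio of CPM (counts per 1000000 reads of the library total), mutant over wild type, of at most 0.5, which 91 genes met. It then left out C17H12.8, C32H11.12, lys-2, zip-2, vhp-1, egg-3 and gpd-4 and all genes with symbols that begin with col-, rol-, ugt-, his-, clec-, gst- or nhr-, which removed 13. The mutant was KU25, a strain with the pmk-1(km25) deletion on chromosome IV, and the wild type was N2 Bristol. Both were young adults grown at 20 °C on agar plates with *Escherichia coli* OP50 and then held for 5 h at 35 °C, so heat stress is common to both, and unheated worms were not analysed here. RNA was taken from lysates of whole worms, with 1 library per genotype. Because the ratio chose the genes, their lower level in the mutant is a description and no finding, and with 1 library per genotype no test was made and no replicate error exists. The pmk-1 transcript itself was not analysed here, so the deletion was not checked in these libraries.

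PMK-1 is the last kinase of a cascade in which NSY-1 activates SEK-1 and SEK-1 activates PMK-1. It is best known for driving the expression of secreted antimicrobial and CUB-like proteins in the intestine through the transcription factor ATF-7, and it also takes part in responses to oxidative and other stresses. In a young adult hermaphrodite a large share of the RNA comes from the germline, where growing oocytes store maternal mRNA for the embryo, and embryos in the uterus add their own transcripts.

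Unique reads came to 5.23 M in the mutant and 5.78 M in the wild type. Over the 5198 genes the median log2 ratio was -0.34, 64.3% of genes had a ratio under 1, 1.75% were at least 2-fold lower in the mutant and 17.6% at least 2-fold higher. Whole groups of tissue markers differed between the libraries. Of 29 oogenic and early embryo genes at 50 reads, 27 had a ratio under 1 and 1 was at least 2-fold lower (median log2 ratio -0.77). That list holds only 1 of the 10 members described below as germline genes, so its count of lower genes depends on which genes it holds. Past 2-fold higher lay 15 of 18 sperm genes, with a median log2 ratio of 3.21, 11 of 13 body wall muscle genes (1.23), 6 of 10 neuronal genes (1.08), 2 of 7 intestinal genes (0.78) and 0 of 6 hypodermal genes (0.12). These directions depend on the scaling. With library totals 91 genes were at least 2-fold lower and 914 at least 2-fold higher, while with the median of 36 body tissue markers set to 0 the split was 3380 lower and 331 higher, and each log2 ratio between 0 and 1.03 turned negative. With the median over genes at 50 reads set near 0, each log2 ratio between -0.34 and 0 turned positive. In whole-worm RNA, fewer cells of a type and less RNA per cell cannot be told apart, and the part of these differences in the ratios of single genes was not tested.

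The 78 genes made up 1.5% of the genes at 50 reads. Together they had 19366 reads in the mutant and 46044 in the wild type, or 0.37% of the mutant library and 0.796% of the wild-type library. Most lay close to the threshold. The median gene was 2.17-fold lower (wild type over mutant), 59 of the 78 were less than 2.5-fold lower, 10 were between 2.5-fold and 3-fold lower, 9 were at least 3-fold lower and 4 at least 4-fold lower. The exact 95% interval of the ratio, which covers counting error only, excluded 1 for all 78, which a ratio of at most 0.5 with at least 50 reads all but fixes. Its near end lay at 2-fold or more for 9 of them. Just inside the threshold were mei-1 at a ratio of 0.499, lip-1 at 0.498 and spd-3 at 0.496. Just outside were ckb-4 at 0.501 and B0261.8 and cey-3, both at 0.504, and the intervals of these 6 genes overlapped.

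**Figure D1:**
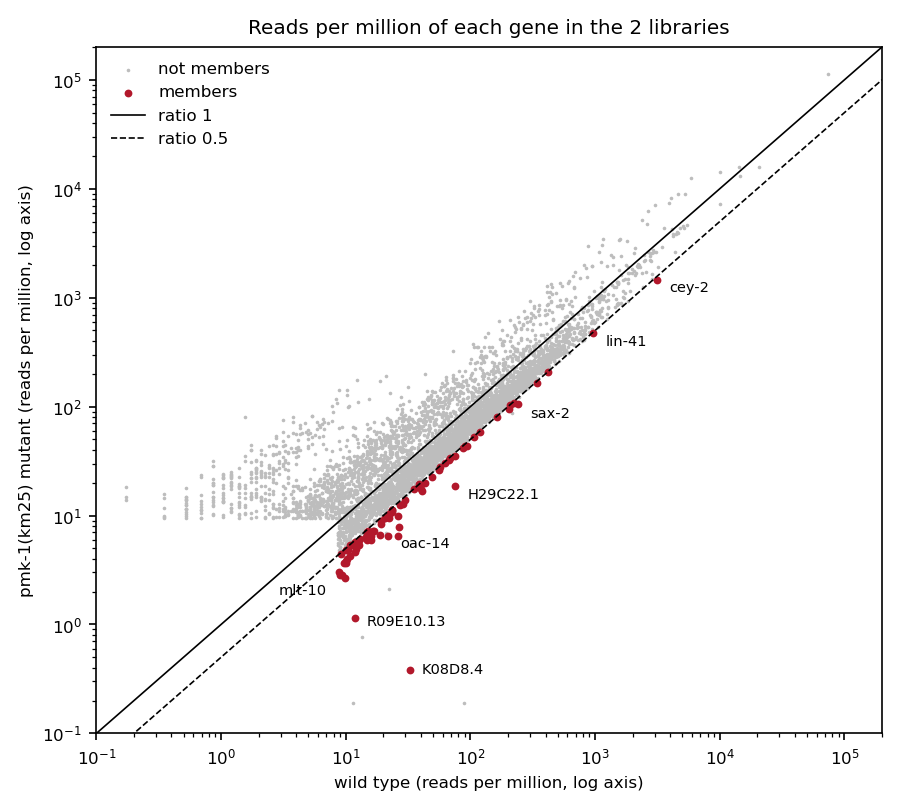
CPM of each gene with reads in both libraries and at least 50 in either, the mutant on the vertical axis and the wild type on the horizontal axis, both logarithmic. Most of the 78 members (red) lie along the dashed line of ratio 0.5, while K08D8.4, R09E10.13, H29C22.1, mlt-10 and oac-14 lie further below it; grey points below that line are genes left out by name or family.

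The members with the smallest ratios were mostly known by sequence name only. Of the members, K08D8.4 stood furthest apart, with 2 reads in the mutant and 188 in the wild type, which is 85-fold lower (interval 23.2 to 707). Its wild-type reads covered 98.7% of the 1320-base coding sequence. In the WBcel235 annotation the next gene on the same strand of chromosome IV is K08D8.5, a CUB-like gene used in the literature as a readout of the PMK-1 pathway, which was not listed in the mutant and had 23 reads in the wild type. The gene after it, the infection response gene irg-6, was listed in neither library. K08D8.4 thus lies beside a gene that was listed in the wild type only, at too few reads for the rule to take it.

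R09E10.13, a coding sequence of 165 bases on chromosome IV, had 6 reads in the mutant and 68 in the wild type, 10.2-fold lower (4.47 to 28.9). Its neighbour on the same strand, R09E10.6, was higher in the mutant, with 894 reads in the mutant and 109 in the wild type, a ratio of 9.07. H29C22.1 on the X chromosome had 97 reads in the mutant and 438 in the wild type, 4.08-fold lower (3.27 to 5.14), and of these 3 genes it had the highest level per length, at 42.3 RPKM (reads per kilobase per 1000000 reads) in the mutant and 173 in the wild type. C49G7.10 on chromosome V had 34 reads in the mutant and 152 in the wild type, 4.04-fold lower (2.77 to 6.05). The gene next to it, the infection response gene irg-2, was listed in neither library. The 2 genes beyond irg-2 differed in the opposite direction from C49G7.10, with 42 mutant and 16 wild-type reads for phat-3 and 586 mutant and 187 wild-type reads for phat-7. C08F11.13 on chromosome IV had 41 reads in the mutant and 155 in the wild type, 3.42-fold lower (2.41 to 4.95). C24D10.5, also on chromosome IV, had 15 reads in the mutant and 54 in the wild type, 3.26-fold lower (1.81 to 6.21). D1046.7 had 15 reads in the mutant and 52 in the wild type, 3.13-fold lower (1.74 to 6). It matched no gene of the annotation and has no chromosome here.

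Besides C49G7.10, described above and also on the infection response list, 4 members with a gene symbol are infection response, moulting, lectin or acyltransferase genes. mlt-10, which is needed for moulting of the larval cuticle, had 14 reads in the mutant and 57 in the wild type, 3.68-fold lower (2.03 to 7.15). oac-14, of a family named for similarity to bacterial O-acyltransferases, had 34 reads in the mutant and 126 in the wild type, 3.35-fold lower (2.28 to 5.05). irg-8, an infection response gene, had 16 reads in the mutant and 51 in the wild type, 2.88-fold lower (1.62 to 5.42). Those reads lay on 6.63% of its sequence in the mutant and 8.35% in the wild type. lec-11, a galectin gene, had 25 reads in the mutant and 60 in the wild type, 2.17-fold lower (1.34 to 3.61), and its exons overlap those of dnj-11 on the other strand.

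The infection response list is described apart above and below the minimum of 50 reads. Its genes with reads include none of C17H12.8, C32H11.12, lys-2, zip-2 or the clec- genes, which the rule left out, so those are in neither count. All 13 genes that the rule removed, of any kind, were at least 2-fold lower. 1 of them had the smallest ratio of all genes at 50 reads, 467-fold lower. The count of lower genes at 50 reads may therefore be held down by what was left out, and does not describe infection response genes as a whole. The parts also differ in kind, with the lys- and most spp- genes above the minimum and the cnc- and most nlp- genes below it. A difference between the parts therefore cannot be assigned to read level. Of 14 infection response genes at 50 reads, 2 were at least 2-fold lower (C49G7.10 and irg-8) and 5 at least 2-fold higher, with a median log2 ratio of 0.86 against -0.34 over all genes, a median that turns negative with body tissue scaling. The antimicrobial-type gene thn-2 (236 mutant and 38 wild-type reads, log2 ratio 2.76) and the saposin-like genes spp-1 (332 mutant and 91 wild-type reads, 2.01) and spp-5 (3163 mutant and 981 wild-type reads, 1.83) had the largest values. Of the 16 listed genes with reads but fewer than 50 in both libraries, 11 (68.8%) had a ratio of at most 0.5, against 11.6% of all 3535 genes under that minimum, and 1 was at least 2-fold higher. The counting interval excluded 1 for 5 of the 11, against 73 of the 410 lower genes among all 3535. The 5 are named here after their values were seen. K08D8.5 was not listed in the mutant and had 23 reads in the wild type, C32H11.4 had 1 read in the mutant and 14 in the wild type, and irg-4 had 3 reads in the mutant and 14 in the wild type. cnc-4 and dod-17 were not listed in the mutant and had 8 reads each in the wild type. The rest of the 11 had between 1 and 5 reads in the wild type, too few to fix a ratio. The list was also chosen with earlier results of these data known. Of 7 moulting and apical matrix genes at 50 reads, mlt-10 was the only gene past 2-fold in either direction, and their median log2 ratio was 0.00088. Any col- or rol- gene at least 2-fold lower, which the rule left out, is not in that count. Among 9 galectins at 50 reads, lec-11 was the only gene at least 2-fold lower, and 4 were at least 2-fold higher, lec-4 the most (722 mutant and 285 wild-type reads, log2 ratio 1.48). oac-14 was the only oac gene at 50 reads.

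10 members are known for work in the germline, the oocyte or the early embryo, and they carried most of the reads, with 13207 of the members' 19366 reads in the mutant and 30630 of 46044 in the wild type. Their folds lay between 2-fold lower, the limit set by the rule, and 2.55-fold lower, with a median of 2.03. Such a narrow range was not particular to them, since the genome maintenance members lay between 2.02-fold and 2.18-fold lower. cey-2, which encodes a Y-box RNA-binding protein of the germline, was the most abundant member, with 7628 reads (1814 RPKM) in the mutant and 18016 reads (3874 RPKM) in the wild type. It was 2.14-fold lower, with the narrowest interval of all members (2.08 to 2.19). cey-3, of the same family, lay just outside the threshold with 2150 reads in the mutant and 4716 in the wild type, whereas cey-4 and cey-1 had log2 ratios of -0.03 and 0.40. lin-41, which encodes a TRIM-NHL RNA-binding protein that keeps growing oocytes from maturing too early, had 2469 reads in the mutant and 5592 in the wild type, 2.05-fold lower (1.95 to 2.15). On the oogenic list, which does not hold cey-2, lin-41 had the smallest ratio. Next were the yolk receptor gene rme-2 (4439 mutant and 9570 wild-type reads, log2 ratio -0.96) and the RNA-binding protein gene puf-11 (1297 mutant and 2738 wild-type reads, -0.93).

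The other germline members had smaller counts. perm-1, needed for the permeability barrier of the eggshell, had 1089 reads in the mutant and 2428 in the wild type, 2.02-fold lower (1.88 to 2.17). pgm-3, an enzyme of the hexosamine pathway that supplies UDP-N-acetylglucosamine, the building block of eggshell chitin, had 858 reads in the mutant and 1982 in the wild type, 2.09-fold lower (1.93 to 2.27). tofu-6, a subunit of the PETISCO complex that acts in piRNA production and embryogenesis, had 537 reads in the mutant and 1197 in the wild type, 2.02-fold lower (1.82 to 2.24). lip-1, a dual-specificity phosphatase that restrains the ERK-type MAP kinase MPK-1 in the germline, had 422 reads in the mutant and 938 in the wild type, 2.01-fold lower (1.79 to 2.26). spd-3, which is required for the early mitotic spindle, had 101 reads in the mutant and 225 in the wild type, 2.01-fold lower (1.59 to 2.57). gtsf-1, which helps assemble the RNA-dependent polymerase complex that makes a class of endogenous small RNAs, had 53 reads in the mutant and 128 in the wild type. 2 germline members rested on a small part of their sequence. The helicase gene vbh-1 had 22 reads in the mutant and 62 in the wild type, 2.55-fold lower (1.54 to 4.35), with 5.43% of its sequence covered in the wild type. mei-1, the catalytic subunit of the katanin that builds the meiotic spindle, had 28 reads in the mutant and 62 in the wild type, 2-fold lower (1.26 to 3.25), with 6.51% covered.

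**Figure D2:**
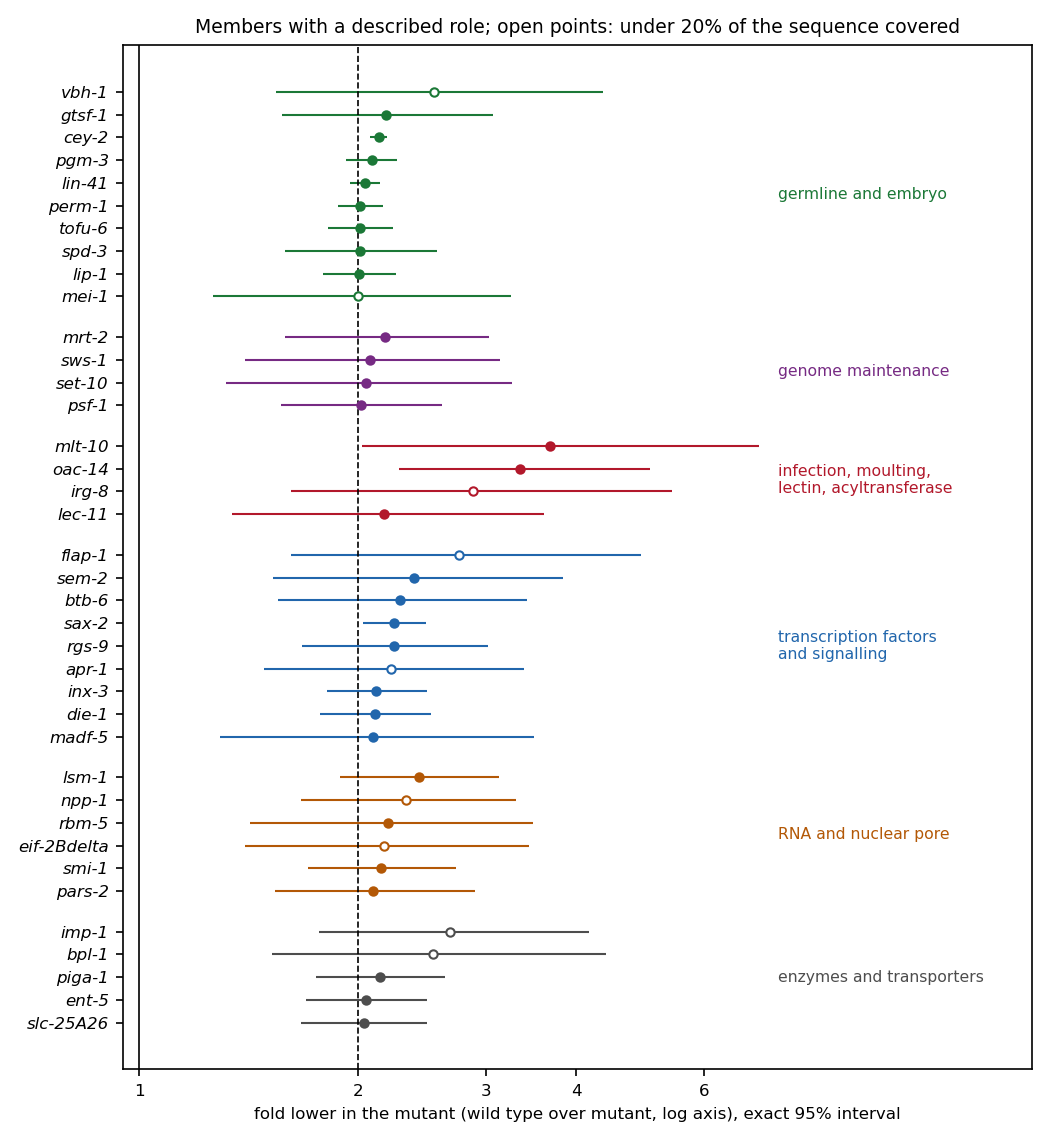
Fold lower in the mutant (wild type over mutant, log axis) with its exact 95% interval for the 38 members with a described role, grouped by role; the dashed line marks 2-fold, the solid line 1, and open points have under 20% of the sequence covered in the wild type. The abundant germline genes cey-2 and lin-41 have short intervals near 2-fold, and mlt-10, oac-14 and irg-8 lie furthest to the right with long ones.

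Genes that work with a member in a complex or pathway mostly had ratios under 1 as well. The 10 such lists were written after the members were known, and a listed gene at least 2-fold lower with 50 reads would itself be a member. Apart from the members they held 32 genes at 50 reads, of which 30 had a ratio under 1 and none was at least 2-fold lower or at least 2-fold higher, with log2 ratios between -0.92 and 0.55 and a median of -0.64. In the same libraries 64.3% of all genes had a ratio under 1. So did 27 of 29 oogenic and early embryo genes (median log2 ratio -0.77). Of 148 genes at 50 reads that are no members but share a symbol prefix with one, 117 had a ratio under 1 (median -0.45). Ratios under 1 were thus not particular to the partners. mei-2, the regulatory subunit of the meiotic katanin, lay close to mei-1, with 957 reads in the mutant and 1999 in the wild type (log2 ratio -0.92) over nearly its whole sequence (98.8% covered in the wild type). In the hexosamine pathway, chs-1, the chitin synthase of the eggshell, had 4677 reads in the mutant and 9386 in the wild type (-0.86), the putative UDP-N-acetylglucosamine pyrophosphorylase gene C36A4.4 had 1104 reads in the mutant and 2117 in the wild type (-0.79) and the acetyltransferase gene gna-2 had 565 reads in the mutant and 1060 in the wild type (-0.76). The PETISCO genes erh-2, pid-3 and pid-1 had log2 ratios of -0.79, -0.78 and -0.53. Of the partners of gtsf-1, rde-4, eri-3 and eri-5 had -0.71, -0.63 and -0.63. The exceptions were the eggshell gene perm-2, with 12488 reads in the mutant and 9410 in the wild type (0.55), and the axin gene pry-1, with 82 reads in the mutant and 67 in the wild type (0.43), which was named after its values were seen. Both turn negative with body tissue scaling.

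**Figure D3:**
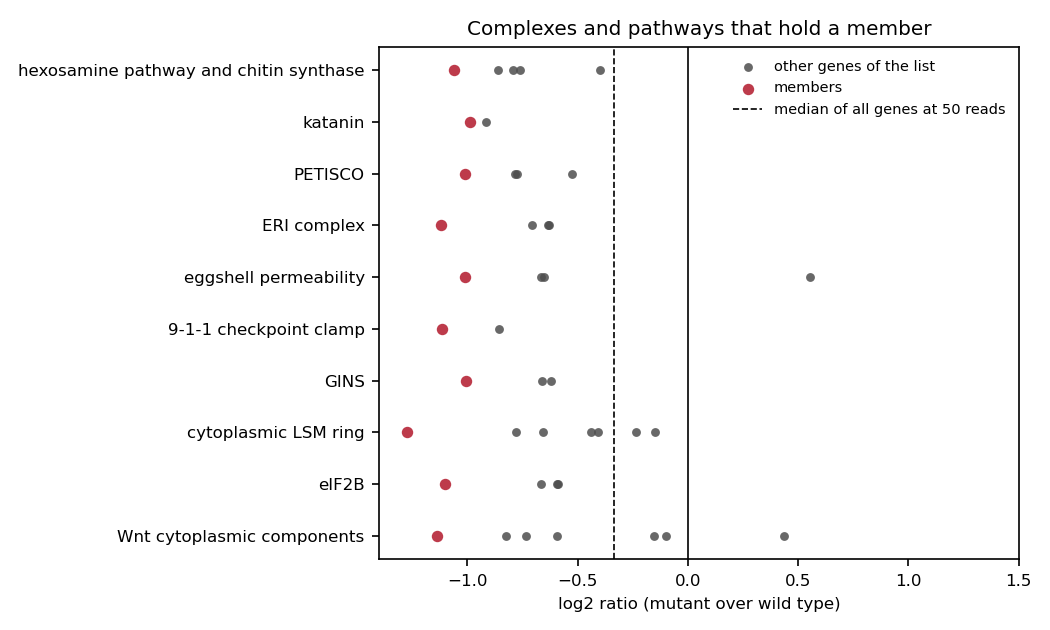
Log2 ratios (mutant over wild type) of genes with at least 50 reads in 10 complexes and pathways, with members in red and the other genes in grey; the dashed line is the median of all genes at 50 reads, -0.34. The grey points lie between -0.92 and 0.55, and perm-2 and pry-1 are those above 0.

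4 members act in genome maintenance, replication or chromatin, and all lay between 2.02-fold and 2.18-fold lower. mrt-2, a subunit of the checkpoint clamp that loads at damaged DNA and telomeres, had 56 reads in the mutant and 135 in the wild type, and its clamp partner hus-1 had a log2 ratio of -0.86. psf-1, of the GINS complex of the replicative helicase, had 91 reads in the mutant and 203 in the wild type, and the GINS genes psf-3 and sld-5 had log2 ratios of -0.66 and -0.62. sws-1, a homologue of a recombination mediator subunit, had 37 reads in the mutant and 85 in the wild type, and set-10, of the SET domain family, had 30 reads in the mutant and 68 in the wild type. The exons of psf-1, sws-1 and set-10 overlap those of a gene on the other strand, and which gene of a pair gave the reads in the shared stretch cannot be told apart where strand was not kept.

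9 members are transcription factors or act in developmental signalling and cell contact. sax-2, a very large Furry-type gene known for neurite shape, had 557 reads in the mutant and 1383 in the wild type, 2.25-fold lower (2.03 to 2.48), and of the 9 it had the most reads. inx-3, an innexin of gap junctions in the embryo and several adult tissues, had 225 reads in the mutant and 528 in the wild type, 2.12-fold lower (1.81 to 2.49). The innexins differed in direction. Among 10 at 50 reads, inx-2 (127 mutant and 271 wild-type reads, log2 ratio -0.95) lay near inx-3, while inx-16 (190 mutant and 91 wild-type reads, 1.20) and inx-15 (155 mutant and 68 wild-type reads, 1.33) were at least 2-fold higher. die-1, a zinc finger factor for epidermal morphogenesis of the embryo, had 185 reads in the mutant and 432 in the wild type, 2.11-fold lower (1.77 to 2.52). Of 7 embryonic transcription factor genes at 50 reads, die-1 was the only gene at least 2-fold lower, lin-26 followed (798 mutant and 1639 wild-type reads, -0.89), and unc-120 (71 mutant and 32 wild-type reads, 1.28) and tlp-1 (118 mutant and 59 wild-type reads, 1.14) were at least 2-fold higher.

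The remaining genes of this group had few reads. rgs-9, a regulator of G protein signalling, had 67 reads in the mutant and 166 in the wild type. btb-6, a BTB domain gene, had 38 reads in the mutant and 96 in the wild type, 2.28-fold lower (1.55 to 3.42). sem-2, a SoxC factor known from the sex myoblasts, had 28 reads in the mutant and 74 in the wild type, 2.39-fold lower (1.53 to 3.84). The MADF domain gene madf-5 had 25 reads in the mutant and 58 in the wild type, and madf-8 of the same family had 92 reads in the mutant and 191 in the wild type (log2 ratio -0.90). 2 genes of the group had low coverage. flap-1, a homologue of a protein that binds Flightless, had 19 reads in the mutant and 58 in the wild type, 2.76-fold lower (1.62 to 4.91), with 12.83% of its sequence covered in the wild type. apr-1, the APC-related gene of Wnt signalling, had 35 reads in the mutant and 86 in the wild type, with 2.58% covered. The other cytoplasmic Wnt genes were spread on both sides of 0. Those at 50 reads had log2 ratios of -0.83 for hmp-2, -0.73 for wrm-1, -0.59 for pop-1, -0.16 for kin-19, -0.10 for gsk-3 and 0.43 for pry-1, and below that level bar-1 had 38 reads in the mutant and 9 in the wild type (2.16).

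6 members handle RNA, translation or nuclear transport. lsm-1, the subunit that sets the cytoplasmic LSM ring of mRNA decay apart from the nuclear ring, had 88 reads in the mutant and 236 in the wild type, 2.42-fold lower (1.89 to 3.13), with 98.4% of its sequence covered in the wild type. The 6 other ring genes all had ratios under 1, with log2 ratios between -0.78 and -0.15. smi-1, a homologue of the SMN complex protein Gemin2, had 105 reads in the mutant and 250 in the wild type, 2.15-fold lower (1.71 to 2.73). npp-1, a nucleoporin, had 50 reads in the mutant and 129 in the wild type, 2.33-fold lower (1.67 to 3.3), with 13.97% of its sequence covered in the wild type. All 12 npp genes at 50 reads had ratios under 1, with a median log2 ratio of -0.67. pars-2, a mitochondrial prolyl-tRNA synthetase, had 59 reads in the mutant and 137 in the wild type. eif-2Bdelta, of the exchange factor eIF2B, had 30 reads in the mutant and 72 in the wild type over 7.36% of its sequence. Its fellow subunits eif-2Bgamma, eif-2Balpha and eif-2Bbeta had log2 ratios of -0.67, -0.60 and -0.59. rbm-5, an RNA-binding motif gene, had 30 reads in the mutant and 73 in the wild type.

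5 members are enzymes or transporters of cell metabolism. slc-25A26, the carrier of S-adenosylmethionine into mitochondria, had 146 reads in the mutant and 329 in the wild type, 2.04-fold lower (1.67 to 2.49). piga-1, which acts at the start of GPI anchor synthesis, had 137 reads in the mutant and 325 in the wild type, 2.15-fold lower (1.75 to 2.64), and overlaps atg-10 on the other strand. ent-5, a nucleoside transporter, had 159 reads in the mutant and 361 in the wild type, and the log2 ratios of ent-6, ent-1 and ent-2 were -0.76, -0.37 and -0.14. bpl-1, a biotin protein ligase, had 21 reads in the mutant and 59 in the wild type, 2.54-fold lower (1.52 to 4.4), with 13.9% of its sequence covered in the wild type. The intramembrane protease gene imp-1 had 31 reads in the mutant and 92 in the wild type, 2.68-fold lower (1.77 to 4.17), with 4.78% covered.

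37 members have a sequence name only, and 3 more (pqn-68, swah-1 and melo-2) are named without a role here. After the 7 already described, R09F10.8 on the X chromosome had the most reads of the 37, with 563 reads (96.2 RPKM) in the mutant and 1297 reads (200.4 RPKM) in the wild type, 2.08-fold lower (1.89 to 2.3). EEED8.3 on chromosome II followed with 494 reads in the mutant and 1189 in the wild type, 2.18-fold lower (1.96 to 2.42), and had the higher level per length, 161 RPKM in the mutant and 351 RPKM in the wild type. C27F2.10 (305 mutant and 692 wild-type reads), F41G3.6 (276 mutant and 620 wild-type reads), C45G9.2 (228 mutant and 544 wild-type reads) and DY3.8 (218 mutant and 507 wild-type reads) came next, at 2.03-fold to 2.16-fold lower, with intervals of 1.79 to 2.36 for C27F2.10 and 1.79 to 2.48 for DY3.8. These genes lie close to the threshold, as the abundant germline members do. EEED8.3 and tofu-6 lie on the same strand with 2 annotated protein-coding genes between them, EEED8.2 (12 mutant and 7 wild-type reads) and EEED8.15 (22 mutant and 47 wild-type reads). DY3.8 and imp-1 are separated by 1 gene, C36B1.11 (767 mutant and 1525 wild-type reads). No other pair of members lay within 3 genes of each other among those with a position, which leaves out D1046.7. The rest of this group had between 20 and 176 reads in the mutant and between 53 and 395 in the wild type. Among those at the smallest ratios, F42A9.6 had 35 reads in the mutant and 108 in the wild type, 2.79-fold lower (1.89 to 4.21). Y53C12A.11 had 52 reads in the mutant and 153 in the wild type, 2.66-fold lower (1.93 to 3.72). Y62E10A.20 had 24 reads in the mutant and 69 in the wild type, 2.6-fold lower (1.61 to 4.33). All 3 overlap exons of another gene, that of F42A9.6 on the other strand. C05C10.5 had 20 reads in the mutant and 58 in the wild type, 2.62-fold lower (1.55 to 4.6), over 14.4% of its sequence in the wild type. F47G4.4 had 34 reads in the mutant and 93 in the wild type, 2.47-fold lower (1.65 to 3.78), and Y75B8A.18 had 26 reads in the mutant and 70 in the wild type, 2.43-fold lower (1.53 to 3.98).

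4 further sequence-name genes were among the 30 smallest ratios, all between 2.28-fold and 2.31-fold lower. C50E3.11 had 33 reads in the mutant and 84 in the wild type (1.52 to 3.56), and C50E3.13, with a name from the same clone on chromosome V, had 92 reads in the mutant and 233 in the wild type (1.79 to 2.95). F52D2.7 on the X chromosome had 38 reads in the mutant and 97 in the wild type (1.57 to 3.45), and C16A11.2 had 44 reads in the mutant and 111 in the wild type (1.6 to 3.31). Of the 3 named genes without a role here, pqn-68, of a family rich in glutamine and asparagine, had 31 reads in the mutant and 85 in the wild type, 2.48-fold lower (1.63 to 3.87). melo-2 had 19 reads in the mutant and 56 in the wild type, 2.67-fold lower (1.56 to 4.75), over 10.3% of its sequence in the wild type and overlapping C18E3.1 on the other strand. swah-1 had 119 reads in the mutant and 286 in the wild type.

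Level, position and sequence features of the members were set beside those of all genes at 50 reads, as descriptions. Read level entered the rule through the minimum and the ratio. Members were genes of lower level: their median was 13.4 RPKM in the mutant and 31.1 RPKM in the wild type, against 55.4 and 64.1 RPKM over all genes. The share of genes that were members was 4.56% at 50 to 99 wild-type reads (31 of 680), 2.54% at 100 to 199, 1.28% at 200 to 499, 0.664% at 500 to 999 and 0.684% at 1000 or more (8 of 1170). Counting error is widest in the lowest class, and its part in that order was not tested. The median coding length was 954 bases for members and 999 bases for all genes. By chromosome, 20 members lay on II (25.6% of members, against 18.1% of all genes), 17 on I (21.8%, against 20.9%), 14 on IV (17.9%, against 17.6%), 9 on III (11.5%, against 18.7%), 9 on V (11.5%, against 15.6%) and 8 on the X chromosome (10.3%, against 8.71%). The X members lay against a background of higher ratios, since the median log2 ratio of the 453 X genes was 0.66, whereas those of the 5 autosomes lay between -0.44 and -0.27. Of 51 genes at 50 reads directly next to a member, none was a member and 41 (80.4%) had a ratio under 1, against 64.3% of all genes. Their median log2 ratio was -0.43, against -0.34 for all genes, and 3 (5.88%) were at least 2-fold higher, against 17.6%. Exons of 24 members (30.8%) overlapped those of another protein-coding gene and 18 (23.1%) did so on the other strand, against 28.4% and 23.3% of all genes. Among the 18 were tofu-6, inx-3, apr-1, mei-1, bpl-1, eif-2Bdelta, C45G9.2 and R09F10.8, to which the same limit applies.

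**Figure D4:**
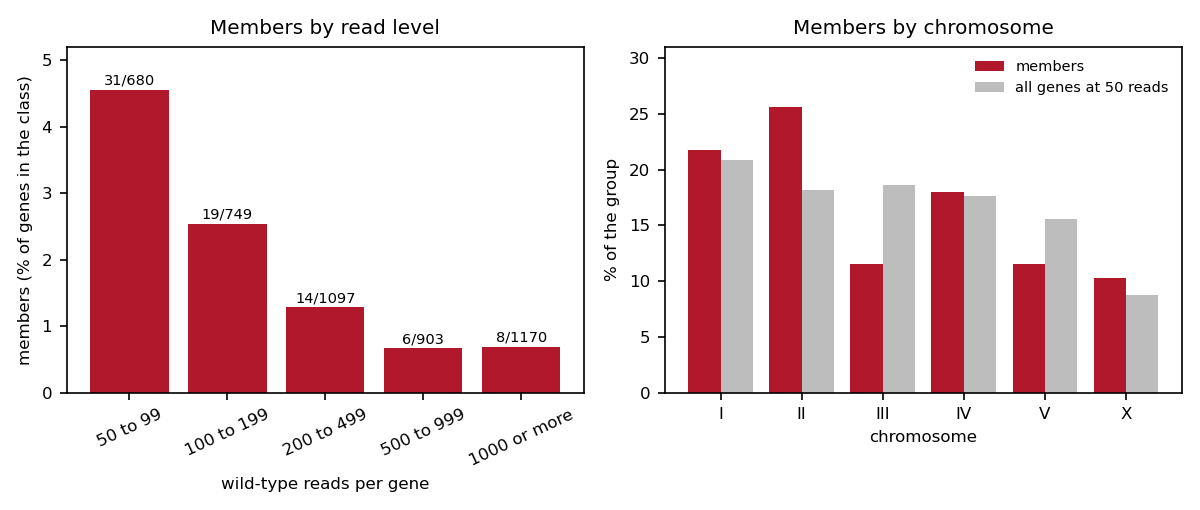
Left, the percent of genes in each class of wild-type reads that are members, with members over genes above each bar; right, the percent of the 78 members and of all genes at 50 reads on each chromosome. The share of members is 4.56% in the lowest read class and 0.684% in the highest, and the chromosome bars differ most on II and III.

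Coverage set a subset of the members apart. In 14 of the 78 (17.9%) wild-type reads covered under 20% of the listed sequence, against 5.21% of all genes at 50 reads. All 14 are listed under IDs with an isoform letter, and 11 of the 78 members (14.1%) had more than 1 ID, against 5.43% of all genes. The 14 had between 16 and 59 reads in the mutant and between 51 and 136 in the wild type, covered between 2.58% and 14.4% of their sequence, and were between 2-fold and 2.88-fold lower. Their counts describe a small part of each transcript. The IDs of a gene could differ. For apr-1, K04G2.8b had 19 reads in the mutant and 58 in the wild type (2.76-fold lower, 1.62 to 4.91), while for K04G2.8a, with 16 reads in the mutant and 28 in the wild type, the interval of the ratio reached 1 (0.319 to 1.21). For F44E2.7, the ID F44E2.7a had 14 mutant and 39 wild-type reads and F44E2.7c had 9 in both libraries. For mei-1, T01G9.5b had 17 reads in the mutant and 41 in the wild type and T01G9.5a had 11 reads in the mutant and 21 in the wild type. In the 60 members with at least 50% of the sequence covered in the wild type, the median fold was 2.15 and wild-type reads ranged between 52 and 18016, with K08D8.4, cey-2, lin-41 and sax-2 among them.

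**Figure D5:**
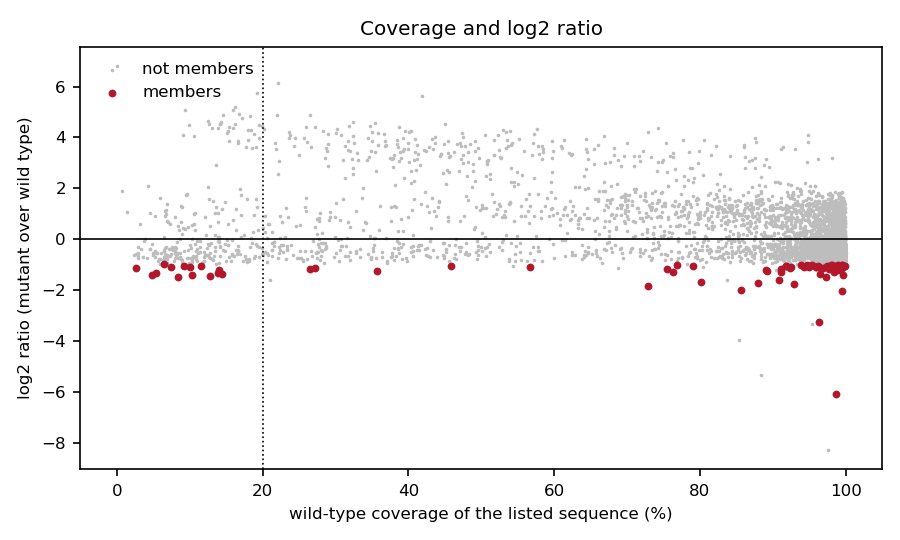
Log2 ratio (mutant over wild type) against the percent of the listed sequence covered by wild-type reads for all genes at 50 reads, members in red, with a dotted line at 20%. 14 members lie left of that line and 60 at 50% or more, among them K08D8.4, the lowest member, with a log2 ratio of -6.09. The lowest of all genes at 50 reads, at -8.28, is a gene that the rule left out.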

How the data were processed

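Poly(A) RNA of each genotype was captured on oligo(dT) beads, primed with random hexamers and read on an Illumina sequencer, per the labels' protocols, which state no strand-specific kit. The authors deposited, per the file headers, the count of unique reads for each coding sequence ID, its length, the percent of it covered by reads, and RPKM (which counts, lengths and totals gave back to a relative error of 2.8e-08). The aligner and genome build were not given in the sources used here. Coordinates are therefore left out. There were 9430 IDs, each with a coding length divisible by 3.

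Of the IDs, 9383 matched the WBcel235 annotation, used for names, chromosomes and gene order, and 47 kept their own names; IDs of 1 gene were summed into 8733 genes. An ID listed in only 1 library was given 0 reads in the other, an assumption that was not tested. Coverage of a gene is that of its best covered ID. The totals in the file headers, 5.23 M mutant and 5.78 M wild-type reads, scaled the counts. Exact 95% intervals are conditional binomial (Clopper-Pearson, SciPy 1.17.1) and treat reads as independent molecules, which reads without molecular identifiers need not be. Log2 ratios used a prior of 0.5 reads. Calculations were tested on simulated data.

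The members, 10 gene lists and the rule for named genes were chosen with earlier results of these data known, and role groups and 10 partner lists after the members' values were seen. Every member could be named. Reads and intervals are given for the 30 smallest ratios, the 10 largest read sums, members that share a list or neighbourhood, and the 3 nearest the threshold. Of genes that are no members, at most 3 per list or family, those with the largest log2 ratios in either direction, are named, except on the Wnt list and for 5 infection response genes under 50 reads. The 3 genes just outside the threshold are named as well. Genes that neighbour or overlap some members are also named, by no fixed rule. Scaling by TMM (edgeR 4.0.16) and other settings were tried as alternatives. Promoter motifs were not analysed here.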

Additional observations from a re-analysis of the deposited data

How the results depend on the processing

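The number of members depended on scaling and thresholds. It was 78 as reported, 65 with median-of-ratios scaling, 48 with TMM, and 19, the 19 genes with the smallest ratios, with median-of-ratios scaling over genes at 50 reads, an alternative chosen after seeing the data, which shifts the median of all genes by 0.34 to 0.0014. With the median of 36 body tissue markers set to 0, which lowers every log2 ratio by 1.03, it was 3338, all 78 among them, and the share of lower genes among all 2-fold calls was 91.1%, against 9.05% with library totals. At 1.5-fold it was 1420. It was 127 at 20 reads, 47 at 100 reads and 462 with 1 read, 84 with each ID on its own, and 60 with at least 50% of the sequence covered, also chosen after seeing the data. The median log2 ratio of the members, -1.11, was -2.13 with body tissue scaling and stayed between -1.12 and -0.77 with the other settings run. For single members, TMM moved 2 and median-of-ratios scaling 1 beyond their counting interval and the deposited RPKM none. No direction turned, but at ratios of at most 0.5 the small shifts of these settings could not turn one. No paired analysis was possible because each genotype has 1 library, and for the same reason no replicate could be left out. Depth limits the genes near the read minimum: the interval of F44E2.7, with 23 mutant and 53 wild-type reads, was 1.26 to 3.56.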
